A study of Mus musculus with 35 samples.

Results

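The 32 genes described here carry pyruvate into the mitochondrion and around the tricarboxylic acid cycle and move reducing equivalents across the inner membrane by the malate-aspartate shuttle. They were taken by name from a table of 27012 genes, and all 32 were found there and passed the filter on low values (a mean normalized count of at least 10 over all libraries). By role they are 10 genes of pyruvate entry (Mpc1, Mpc2, Pdha1, Pdhb, Dlat, Pdhx, Dld, Pdp1, Pdpr, Pcx), 16 of the cycle (Cs, Idh2, Idh3a, Idh3b, Idh3g, Ogdh, Dlst, Sucla2, Suclg1, Suclg2, Sdha, Sdhb, Sdhc, Sdhd, Fh1, Mdh2) and 6 of the shuttle (Mdh1, Got1, Got2, Slc25a11, Slc25a12, Slc25a13). Their expression was measured by RNA sequencing of the heart apex of mice on a C57Bl/6/FVB background, operated on at 6 weeks of age and killed on day 3 after transaortic constriction (TAC, a tie around the aorta that raises the pressure the left ventricle works against) or a sham operation. WT mice carried the floxed Irs2 allele without Cre. IRS1KO mice carried alphaMHC-Cre with the floxed Irs1 allele, and IRS2KO mice carried alphaMHC-Cre with the floxed Irs2 allele, so that the gene for an insulin receptor substrate was deleted in cells that express the alpha myosin heavy chain promoter, that is, cardiomyocytes. Each group had 6 libraries except WT TAC, which had 5 (replicates 1, 2, 3, 5 and 6). No group carried Cre alone, so in a comparison of a knockout with WT an effect of Cre and an effect of the deletion cannot be told apart. IRS1KO mice also differed from WT mice in the floxed allele they carried. A difference between these mouse lines and the loss of Irs1 cannot be told apart either. Nothing in the labels ties each library to a mouse of its own, so the p-values measure the spread between libraries.

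As background, pyruvate enters the mitochondrion through a carrier made of Mpc1 and Mpc2 and is oxidized to acetyl-CoA by the pyruvate dehydrogenase complex, which phosphatases switch on and kinases switch off. Citrate synthase joins acetyl-CoA to oxaloacetate, and the cycle then strips electrons from the carbon skeleton, with succinate dehydrogenase serving as both a cycle enzyme and complex II of the respiratory chain. The malate-aspartate shuttle brings the reducing power of cytosolic NADH into the matrix. Heart muscle draws nearly all of its ATP from mitochondrial oxidation and holds these enzymes at high levels.

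Promoter windows of 4 of the genes are shown because these are the genes the results turn on: Idh2 had the largest response to TAC, Sdha and Sucla2 were the members called lower in IRS1KO hearts after TAC, and Sdhd was the member of succinate dehydrogenase with the smallest response. Each window holds 300 bases around the RefSeq start site in GRCm38.p6, most of them upstream, and is written 5′ to 3′ on the strand of the gene. Capitals mark matches to TNAAGGTCA (the extended binding motif of estrogen-related receptors) or to the NRF1 palindrome with 1 base left free, on either strand. The windows are Idh2 at chr7:80115301-80115600 on the minus strand, Sdha at chr13:74350191-74350490 on the minus strand, Sucla2 at chr14:73552536-73552835 on the plus strand and Sdhd at chr9:50603800-50604099 on the minus strand.
Idh2: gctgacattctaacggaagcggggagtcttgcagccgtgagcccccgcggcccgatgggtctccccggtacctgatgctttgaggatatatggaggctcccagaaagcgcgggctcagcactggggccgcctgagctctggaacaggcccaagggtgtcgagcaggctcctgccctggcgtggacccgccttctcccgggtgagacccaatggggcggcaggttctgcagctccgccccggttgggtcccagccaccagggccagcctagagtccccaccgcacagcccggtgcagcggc
Sdha: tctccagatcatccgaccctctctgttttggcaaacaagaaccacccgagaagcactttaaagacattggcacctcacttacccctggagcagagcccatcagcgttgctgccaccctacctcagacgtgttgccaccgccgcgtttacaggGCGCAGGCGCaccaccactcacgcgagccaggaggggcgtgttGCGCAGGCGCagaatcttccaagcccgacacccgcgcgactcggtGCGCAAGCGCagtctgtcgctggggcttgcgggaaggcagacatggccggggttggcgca
Sucla2: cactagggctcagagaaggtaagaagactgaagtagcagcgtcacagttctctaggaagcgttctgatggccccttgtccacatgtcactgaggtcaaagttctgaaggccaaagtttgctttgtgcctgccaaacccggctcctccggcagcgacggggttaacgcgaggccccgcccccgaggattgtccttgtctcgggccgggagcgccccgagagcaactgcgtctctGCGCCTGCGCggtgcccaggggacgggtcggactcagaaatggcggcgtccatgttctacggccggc
Sdhd: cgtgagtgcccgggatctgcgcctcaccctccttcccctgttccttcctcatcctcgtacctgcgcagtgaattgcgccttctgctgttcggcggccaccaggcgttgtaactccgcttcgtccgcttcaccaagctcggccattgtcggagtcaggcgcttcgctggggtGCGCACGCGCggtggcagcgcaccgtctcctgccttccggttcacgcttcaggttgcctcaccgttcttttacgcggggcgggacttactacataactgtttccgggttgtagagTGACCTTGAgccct
Windows were held for 29 of the 32 genes (not for Idh3a, Sdhc and Pdp1). The motif TNAAGGTCA was present in the window of 1 of these 29 genes, Sdhd (3.45%), against 1.43% of the 27025 genes with a window. The NRF1 palindrome, the spaced repeat that PPAR binds and the YY1 motif, on both strands, had no match in any of the 29, against 1.07%, 0.0481% and 0.755% of all genes. The NRF1 palindrome with 1 free base and AAGGTCA were added after that search. The first of these, which also finds every full palindrome, was found in Dld, Sdha, Sdhd and Sucla2 (13.8% of the 29, against 5.19% of all genes), with 3 matches in Sdha. AAGGTCA, which lies within TNAAGGTCA, was found in Got1, Ogdh and Sdhd (10.3%, against 5.38%). The Idh2 window held none of these letters, which is a statement about 300 bases only.

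The libraries held 11707111 to 14609467 counted reads and 18599 to 20803 detected genes. Irs1, the gene deleted in IRS1KO, had a normalized count of 0 to 43.8 in IRS1KO sham and 0 to 80.3 in IRS1KO TAC libraries, against 135 to 310 in the 11 WT libraries, and it was called lower in both comparisons (log2 fold change -3.71 and -3.46, limma adjusted p = 0.000431 and 0.00246). Irs2 overlapped between IRS2KO and WT (98.1 to 138 against 93.0 to 564 in sham) and was not called there (log2 fold change -0.54 in sham and -0.99 after TAC, limma adjusted p = 1 and 0.695), so the whole-gene count against WT gives no check of that deletion. Irs2 was lower in IRS2KO than in IRS1KO sham hearts, by 1.31 on the log2 scale (limma adjusted p = 0.0125). The IRS1KO sham libraries had 225 to 504, above every WT sham library but replicate 2 (564), so this difference does not by itself check the deletion. Cardiomyocyte markers were high in every library, none of the 12 was at 0, and the adipocyte, T and NK cell, and B cell markers summed to at most 23.7 normalized counts in any library. A few libraries stood apart. The atrial markers summed to 330 normalized counts in WT sham replicate 5 and to at most 36.9 in any other library. WT TAC replicate 2, IRS1KO TAC replicate 5 and IRS2KO TAC replicates 1 and 4 lay nearer to sham than the other TAC libraries of their groups. A fit without the nearest of each genotype was also run.

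All 32 genes had a lower mean in WT hearts after TAC, and 30 of them passed the test (limma on log2 normalized count + 1, Benjamini-Hochberg adjusted p under 0.05), where 26.6% of the 13695 genes tested were called lower. The median log2 fold change of the 32 was -0.57, against -0.01 over all genes tested. In 23 of the 32 every TAC library lay below every sham library, where 14.3% of all genes did so. The genes not called were Sdhd (log2 fold change -0.32 ± 0.16 SE, adjusted p = 0.0795) and Pdp1 (-0.26 ± 0.14, adjusted p = 0.116). By role, 9 of 10 genes of pyruvate entry (median -0.45), 15 of 16 of the cycle (median -0.65) and 6 of 6 of the shuttle (median -0.62) fell. When every library was scaled to the same total instead, the median of all genes rose to 0.24 and 6221 genes were called higher and 1583 lower, against 3877 and 3638 with the deposited scaling. Under that scaling all 32 genes still had a lower mean in WT TAC, with a median of -0.31, and 22 were called. The calls lost were those of Mpc1, Pdhb, Dlat, Pdhx, Pdpr and Pcx in pyruvate entry and of Idh3a and Dlst in the cycle.

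**Figure D1:**
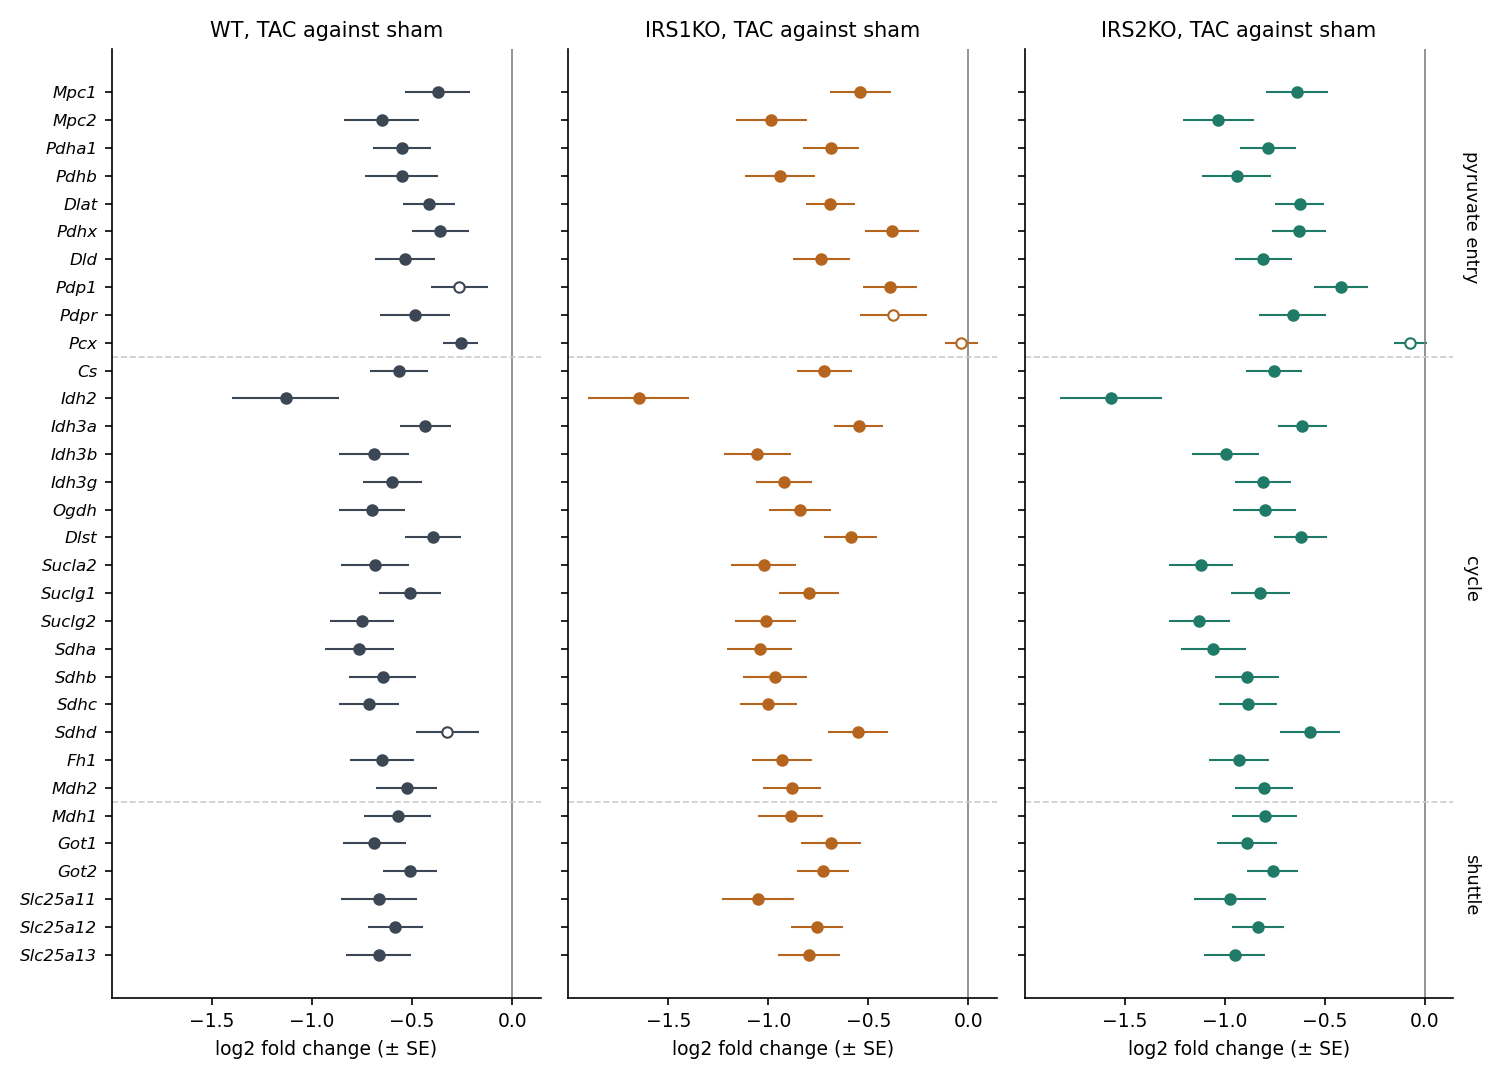
Log2 fold change of each of the 32 genes (vertical axis, grouped by role with dashed lines) between TAC and sham in WT, IRS1KO and IRS2KO hearts, with bars for the standard error; filled points passed the adjusted p of 0.05 and open points did not. Idh2 lay farthest to the left in every panel, at -1.13, -1.65 and -1.57, and Pcx nearest to 0 in both knockouts.

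Among the genes of pyruvate entry, both carrier genes fell, and their ratio did not pass the test (log2 Mpc1 minus Mpc2 higher after TAC by 0.28 in WT, adjusted p = 0.0707, exact permutation test). Mpc2 had 2811 to 3471 normalized counts in WT sham (median 3098) and 1923, 2479, 1519, 2206 and 1859 in the 5 WT TAC libraries, so the groups did not overlap (log2 fold change -0.65 ± 0.19 SE, limma adjusted p = 0.00425). Mpc1 had 786 to 1016 in WT sham (median 900) and 606, 942, 556, 671 and 698 in WT TAC, where replicate 2 lay among the sham libraries (-0.37 ± 0.16, adjusted p = 0.0496). The Mpc1 call was lost in 15 of its 24 alternatives, edgeR and DESeq2 among them. Its exons overlap an opposite-strand transcript, and a pseudogene named Mpc1-ps is annotated. Per kilobase of annotated exon the carrier genes were level in WT sham, at 427 ± 43.9 for Mpc1 and 423 ± 34.6 for Mpc2 (SD, n = 6). These levels divide by all annotated exon bases of a gene, 2082 for Mpc1 and 7344 for Mpc2. They depend on that annotation and do not give the ratio of the carrier transcripts.

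The genes of the pyruvate dehydrogenase complex fell by similar amounts. Pdha1, which encodes the alpha subunit of the decarboxylase, had 11311 to 13316 normalized counts in WT sham (median 12366) and 8011, 10660, 6571, 8940 and 8022 in WT TAC (log2 fold change -0.55 ± 0.15). Its partner Pdhb went from a median of 8127 to 5549, 7382, 4291, 5801 and 5416 (-0.55 ± 0.18). Dld, the dihydrolipoamide dehydrogenase that several dehydrogenase complexes share, had a log2 fold change of -0.53 ± 0.15. These 3 genes had no overlap between sham and TAC. Dlat, the acetyltransferase core (-0.42 ± 0.13), and Pdhx, the protein that anchors Dld to that core (-0.36 ± 0.14), also fell, but WT TAC replicate 2 overlapped with sham in both. The Pdhx call was lost when any of 4 single libraries was left out (WT sham 5 and 6, WT TAC 1 and 3).

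Pdp1 and Pcx had the smallest changes of the 32 genes in WT. Pdp1, the catalytic subunit of pyruvate dehydrogenase phosphatase, had 432 to 537 normalized counts in WT sham (median 482) and 315, 412, 412, 446 and 434 in WT TAC. Pdpr, the regulatory subunit of that phosphatase, had 1310 to 1660 (median 1542) and then 986, 1423, 915, 975 and 1126 (-0.49 ± 0.18, limma adjusted p = 0.0202). The Pdpr call was lost without WT TAC 3 and when libraries were scaled to the same total. Pcx, pyruvate carboxylase, which makes oxaloacetate from pyruvate, had 407 to 524 (median 489) and then 335, 442, 371, 417 and 424 (-0.26 ± 0.09, adjusted p = 0.0128). Only 2 of the 5 TAC values of Pcx lay below all sham values, and its call in WT was lost without WT TAC replicate 1 and when libraries were scaled to the same total.

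In the cycle, Idh2, the mitochondrial NADP-dependent isocitrate dehydrogenase, had the largest change of the 32 genes in each genotype. It lies on chromosome 7 (GRCm38 80094846 to 80115392, minus strand). WT sham libraries had 21884 to 27065 normalized counts (median 24133), and the WT TAC libraries had 11301, 16610, 6451, 13341 and 9861, all below every sham library. The TAC mean was 47.7% of the sham mean (log2 fold change -1.13 ± 0.27 SE, limma adjusted p = 0.000722). In IRS1KO the sham libraries had 18150 to 22483 (median 20653) and the TAC libraries 4300 to 13357 (median 6258), a log2 fold change of -1.65 ± 0.25. In IRS2KO they had 21265 to 25905 (median 23933) and 4059 to 15369 (median 7504), a log2 fold change of -1.57 ± 0.25. The groups did not overlap in any genotype, and Idh2 went from 7.87% ± 0.27 of the summed level of the 32 genes in WT sham to 5.61% ± 0.92 in WT TAC, from 7.36% ± 0.41 to 4.37% ± 1.06 in IRS1KO and from 7.54% ± 0.32 to 4.71% ± 0.89 in IRS2KO (SD).

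**Figure D2:**
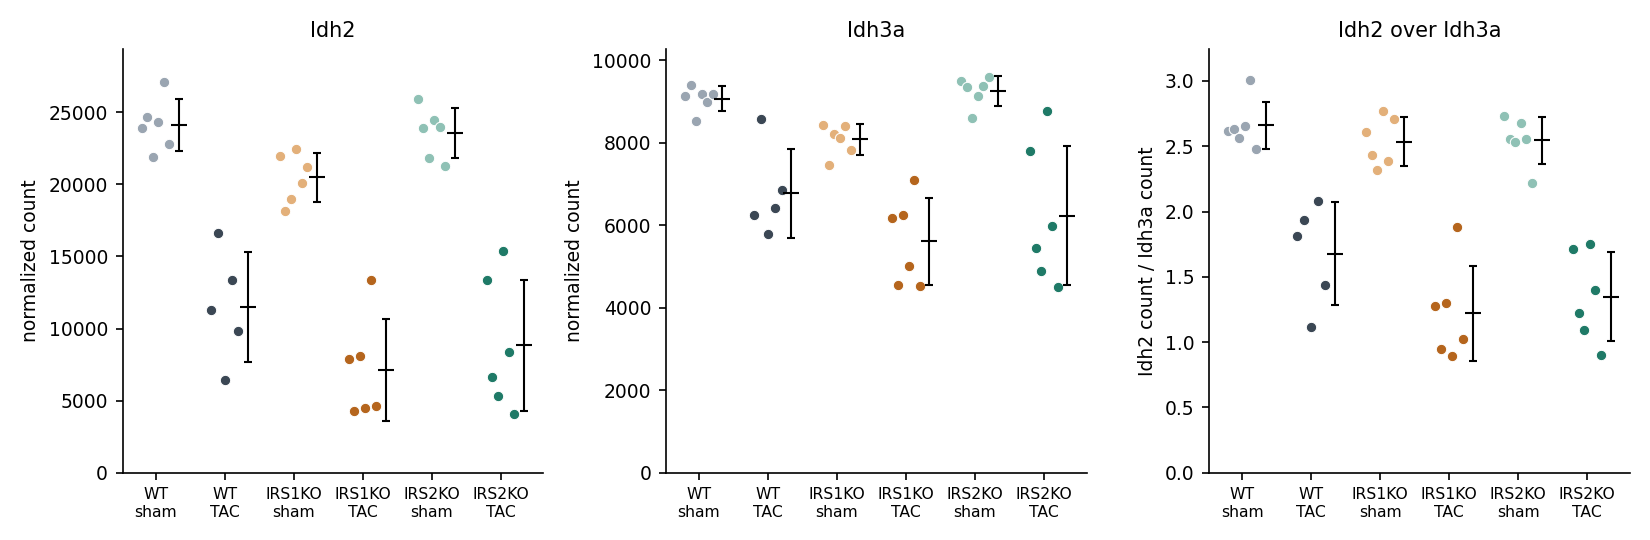
Normalized count of Idh2 (left) and Idh3a (middle) and the ratio of the counts (right) in each library (points) of the 6 groups, with the mean and SD of each group beside them. The ratio of Idh2 to Idh3a was 2.22 to 3.01 in the sham libraries and 0.893 to 2.08 in the TAC libraries.

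The NAD-dependent isocitrate dehydrogenase, built from Idh3a, Idh3b and Idh3g, fell less than Idh2. Idh3a, its catalytic subunit, had 8531 to 9397 normalized counts in WT sham (median 9156) and 6242, 8576, 5799, 6408 and 6852 in WT TAC (log2 fold change -0.43 ± 0.13). The log2 ratio of Idh2 to Idh3a within a library, which does not depend on how libraries are scaled, was lower after TAC by 0.70 in WT, 1.10 in IRS1KO and 0.96 in IRS2KO. This test covered 8 pairs of genes in 7 comparisons (56 in all), and the adjusted p was 0.0242 in each genotype (two-sided exact permutation test over libraries, Benjamini-Hochberg over the 56). TAC and sham libraries did not overlap in any of the 3. In WT the adjusted p was 0.0539 at the highest when a library was left out, and the call was lost without WT sham replicate 1, 3, 4 or 5, with the difference between -0.79 and -0.56. Leaving out a WT sham library makes the groups equal in size, where the smallest p this test can give is larger. Idh3b (-0.69 ± 0.17) and Idh3g (-0.60 ± 0.15) fell without overlap. Idh3b shares exon sequence with the opposite-strand gene Nop56, and whether strand was used in counting is not given.

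Citrate synthase, Cs, had 20811 to 24152 normalized counts in WT sham (median 23586) and 15143, 20333, 12012, 15511 and 15270 in WT TAC (log2 fold change -0.56 ± 0.15, limma adjusted p = 0.00173). Ogdh, the decarboxylase of the 2-oxoglutarate dehydrogenase complex, had 35554 to 40455 (median 38658) and then 20535, 33196, 19230, 22775 and 24555 (-0.70 ± 0.16). Dlst, the succinyltransferase of the same complex, fell less (-0.40 ± 0.14). Its call was lost without WT TAC replicate 3, under quantile normalization and with the same total per library. Every WT TAC value of Cs and Ogdh lay below the sham values, while WT TAC replicate 2 of Dlst did not.

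Succinyl-CoA ligase joins the alpha subunit Suclg1 to either Sucla2, which gives the ADP-forming enzyme, or Suclg2, which gives the GDP-forming enzyme. Sucla2 had 8736 to 9824 normalized counts in WT sham (median 9152) and 5499, 7410, 4287, 6716 and 5202 in WT TAC (-0.69 ± 0.17). Suclg2 had a median of 2487 and then 1473, 1790, 1118, 1654 and 1422 (-0.75 ± 0.16). Suclg1 had a log2 fold change of -0.51 ± 0.16. All 3 had no overlap between TAC and sham, and the ratio of Suclg2 to Sucla2 did not pass the test for TAC in any genotype (differences of -0.06, 0.01 and -0.01 on the log2 scale).

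Of the 4 genes of succinate dehydrogenase, Sdha, Sdhb and Sdhc fell and Sdhd did not pass the test in WT. Sdha, the flavoprotein that oxidizes succinate, had 19845 to 23554 normalized counts in WT sham (median 21476) and 12496, 16198, 9226, 14028 and 11863 in WT TAC (-0.76 ± 0.17, limma adjusted p = 0.000448). Sdhb, the iron-sulfur subunit, and Sdhc, a membrane anchor, had -0.65 ± 0.17 and -0.71 ± 0.15. The other anchor, Sdhd, had 6103 to 7098 (median 6647) and then 5336, 6769, 4153, 5296 and 5382. Only WT TAC replicate 2 overlapped with sham in Sdhd, and the gene was called without that library. In the knockouts Sdhd fell (-0.55 ± 0.15 in IRS1KO and -0.57 ± 0.15 in IRS2KO), again with the smallest change of the 4 subunits. The last steps, fumarase (Fh1, -0.65 ± 0.16) and mitochondrial malate dehydrogenase (Mdh2, -0.53 ± 0.15), fell without overlap, and the Mdh2 call was lost under quantile normalization (-0.26, limma adjusted p = 0.0593).

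All 6 genes of the malate-aspartate shuttle fell in WT, and none of them overlapped between TAC and sham in any genotype. Mdh1, cytosolic malate dehydrogenase, had the highest level per kilobase of exon of the 32 genes in WT sham (10298 ± 646, SD, n = 6), ahead of Idh2 (9317 ± 690) and Ogdh (7038 ± 357), with Pdp1 (107 ± 8.28) and Pcx (100 ± 9.35) lowest. The means of Pdp1 and Pcx lay within 1 SD of each other. This order depends on the annotated exon bases of each gene. Exons of Mdh1 overlap the opposite-strand gene Wdpcp, and those of Pdha1, Pdpr and Slc25a11 overlap the opposite-strand genes Map3k15, 9430091E24Rik and Rnf167. Mdh1 had 24015 to 28531 normalized counts in WT sham (median 26325) and 17296, 22777, 13280, 18428 and 18236 in WT TAC (-0.57 ± 0.17). Got1, the cytosolic aspartate aminotransferase, had 12898 to 14669 (median 13896) and then 8191, 12630, 6665, 8798 and 7664 (-0.69 ± 0.16). Got2, its mitochondrial partner, had -0.51 ± 0.13, with an exon overlap and a pseudogene named Got2-ps1 that the counting could confuse with it. The oxoglutarate carrier gene Slc25a11 had -0.67 ± 0.19, and the aspartate-glutamate carrier genes Slc25a12 and Slc25a13 had -0.58 ± 0.14 and -0.67 ± 0.16. The cytosolic and mitochondrial malate dehydrogenases kept their ratio closely: log2 Mdh1 minus Mdh2 differed by -0.05, -0.01 and 0.00 between TAC and sham in WT, IRS1KO and IRS2KO.

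The same direction was seen in both knockouts. In IRS1KO 30 of the 32 genes fell after TAC (31.7% of all genes tested were called lower), with a median log2 fold change of -0.80 against -0.01 over all genes, and 26 had no overlap between TAC and sham (16.7% of all genes). Pcx (-0.04 ± 0.08 SE, limma adjusted p = 0.714) and Pdpr (-0.38 ± 0.17, adjusted p = 0.0501) were not called. Pdpr was called in 10 of its alternatives, among them edgeR, DESeq2 and the fit without IRS1KO sham replicate 1, whose count of 704 lay below all others of its group. In IRS2KO 31 genes fell (31.1% of all genes were called lower), with a median of -0.81, and 24 had no overlap (13.6% of all genes). Pcx was again the gene not called (-0.07 ± 0.08, adjusted p = 0.459). Scaled to the same total per library, the median of the 32 genes was -0.49 in IRS1KO and -0.47 in IRS2KO, 31 of 32 had a lower mean, and Pcx was called higher in both (0.27 and 0.26). That scaling also raised the median of all genes, by an amount given in the closing section. The calls of Pcx under it therefore do not show a rise against the other genes.

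Pcx had 425 to 509 normalized counts in IRS1KO sham (median 460) and 379 to 518 in IRS1KO TAC (median 462). In IRS2KO it had 413 to 519 (median 464) and 386 to 485 (median 449). Within libraries the log2 ratio of Pcx to Pdha1 was higher after TAC by 0.65 in IRS1KO (adjusted p = 0.0346, exact permutation test), by 0.71 in IRS2KO (adjusted p = 0.0539) and by 0.29 in WT (adjusted p = 0.0779), so only the first passed, and its call was lost without any 1 of the 6 IRS1KO sham libraries. The log2 ratio of Mpc1 to Mpc2 was higher after TAC by 0.45 in IRS1KO and 0.39 in IRS2KO and did not pass there either (adjusted p = 0.0539 and 0.0808, exact permutation test).

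The TAC libraries of a group differed widely in how far the 32 genes fell. The median level of the 32 genes against the WT sham mean was -0.61, -0.20, -0.93, -0.50 and -0.60 in WT TAC replicates 1, 2, 3, 5 and 6. It was -0.70, -1.17, -0.76, -1.17, -0.46 and -1.20 in IRS1KO TAC replicates 1 to 6 and -0.31, -1.02, -1.17, -0.20, -0.75 and -1.35 in IRS2KO TAC replicates 1 to 6. The sham libraries of all genotypes lay between -0.20 and 0.11. In 16 of the 17 TAC libraries Idh2 was the gene lowest against its WT sham mean, and in IRS1KO TAC replicate 5 it was Sucla2. A further fit left out the TAC library nearest to sham in each genotype (WT 2, IRS1KO 5 and IRS2KO 4), a choice made after the data were seen. The median log2 fold changes of the 32 genes were then -0.66, -0.89 and -0.93 in WT, IRS1KO and IRS2KO.

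**Figure D3:**
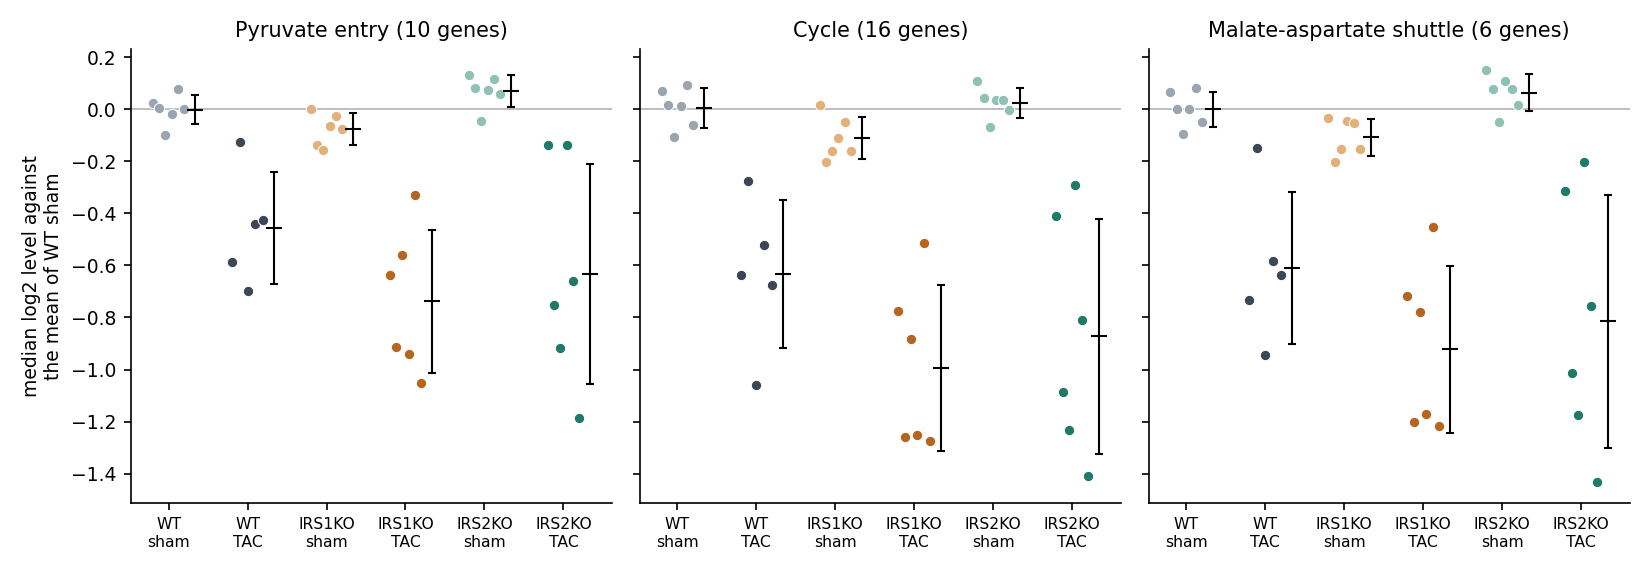
Median log2 level of the genes of each role against their WT sham means in each library (points) of the 6 groups, with the mean and SD of each group beside them; the grey line marks the WT sham mean. The libraries WT TAC 2, IRS1KO TAC 5 and IRS2KO TAC 1 and 4 sit highest among the TAC libraries of their genotype in every panel.

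Markers of several cell types moved with the 32 genes. Of 12 cardiomyocyte markers, 10 fell in WT (median -0.82), 9 fell in IRS1KO (median -1.20), and 10 fell and 1 rose in IRS2KO (median -1.07). Their summed level was 1113697 to 1252303 normalized counts in WT sham and 603556 to 1073897 in WT TAC. All 10 macrophage and monocyte markers rose in each genotype (3326 to 4078 summed in WT sham and 8276 to 23011 in WT TAC), and of 10 fibroblast markers 7 rose and 1 fell in WT and 6 rose and 2 fell in each knockout. Endothelial markers fell (6 of 8 in WT, 7 of 8 in each knockout), and no marker of these 4 lists was at 0 in a whole group. All 3 erythroid markers fell in each genotype (medians -0.92, -0.88 and -1.30). Of the 7 smooth muscle and pericyte markers tested, 4 fell in each genotype, while 2 rose in WT, 1 in IRS1KO and 2 in IRS2KO. Of 2 neutrophil markers tested, 2 rose in WT and 1 in each knockout, and of 3 skeletal muscle markers 2 rose and 1 fell in each genotype. Their part in the result was not tested. In bulk samples, fewer cardiomyocytes and less of these RNAs per cardiomyocyte cannot be told apart. Set against the summed cardiomyocyte markers of the same library, the summed level of the 32 genes was 25.8% ± 0.53 in WT sham and 25.5% ± 1.27 in WT TAC, 24.2% ± 0.47 and 24.6% ± 0.88 in IRS1KO, and 26.6% ± 0.38 and 24.1% ± 1.12 in IRS2KO (SD). With the most abundant marker, Myh6, left out of the sum, the shares went from 38.5% to 35.3%, from 36.2% to 33.5% and from 39.7% to 33.3%. As a share of the summed genes of the mitochondrial genome the 32 genes held 7.00% to 7.17% on average in every group, while the mitochondrial genome itself went from 29.9% to 23.4% of reads in WT, from 28.6% to 19.5% in IRS1KO and from 30.4% to 21.1% in IRS2KO.

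**Figure D4:**
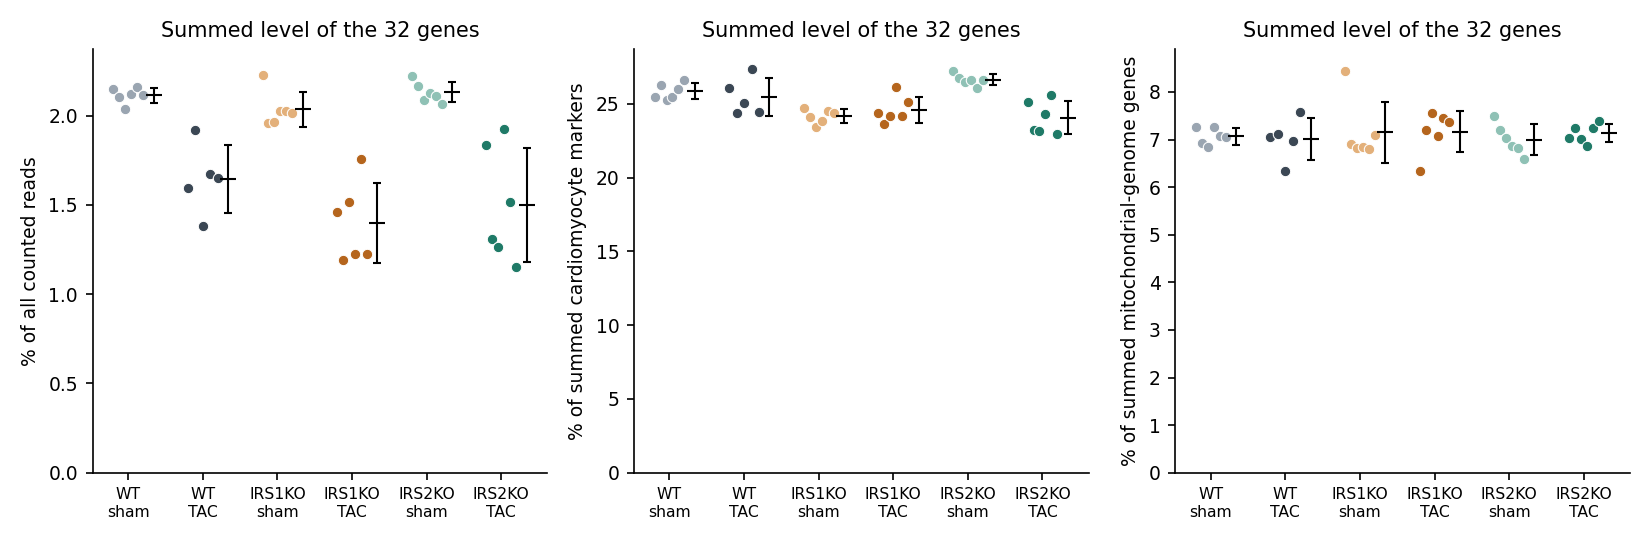
Summed level of the 32 genes in each library (points) as a percent of all counted reads (left), of the summed cardiomyocyte markers (middle) and of the summed genes of the mitochondrial genome (right), with the mean and SD of each group. The share of reads was 2.11% in WT sham and 1.64% in WT TAC, while the other shares of WT sham and WT TAC differed by less than 1 SD of the TAC libraries.

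In sham hearts, no member was called between IRS1KO and WT in limma on all 6 groups (0 of 32 called, 4.65% of all genes called in either direction), and edgeR and DESeq2 also called 0. The median difference was -0.10, and 31 of 32 genes had the lower mean in IRS1KO. The smallest p were those of Got1 (-0.33 ± 0.15 SE, limma adjusted p = 0.25), Sucla2 (-0.35 ± 0.16, adjusted p = 0.261) and Sdha (-0.34 ± 0.16, adjusted p = 0.3). Sucla2 had 6627 to 7946 normalized counts in IRS1KO sham (median 7064), all below the 8736 to 9824 of WT sham. Sdha had 15628 to 18499 (median 16783) against 19845 to 23554, and Got1 had 9423 to 12019 (median 11308) against 12898 to 14669, again with no overlap. Idh3a was the fourth gene without overlap, where 3.45% of all genes lay wholly lower in IRS1KO. With the spread taken from the WT sham and IRS1KO sham libraries alone, 8 genes were called lower (Ogdh, Dld, Sdha, Sucla2, Got1, Slc25a12, Idh2 and Idh3a), where that fit called 5.97% of all genes lower. With libraries weighted by their quality 3 were called lower (Sdha, Sucla2 and Got1), where 6.93% of all genes were.

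After TAC, 2 of the 32 genes were lower in IRS1KO than in WT, Sucla2 and Sdha, where 2.68% of all genes were called lower. Sucla2 had 2791 to 4777 normalized counts in IRS1KO TAC (median 3429) against 5499, 7410, 4287, 6716 and 5202 in WT TAC (log2 fold change -0.69 ± 0.17 SE, limma adjusted p = 0.0122). Sdha had 6478 to 12012 (median 7754) against 12496, 16198, 9226, 14028 and 11863 (-0.62 ± 0.17, adjusted p = 0.0301). In both genes the groups overlapped: WT TAC replicate 3 lay below IRS1KO TAC replicate 5 in Sucla2, and WT TAC replicates 3 and 6 did so in Sdha. The median difference of the 32 was -0.34, against 0.00 over all genes, and 30 had the lower mean in IRS1KO. Next in order were Idh2 (-0.75 ± 0.27, adjusted p = 0.0987) and Mpc2 (-0.51 ± 0.19, adjusted p = 0.115).

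The number called after TAC depended on the libraries and on the estimate of the spread. It was 0 without WT TAC replicate 2, 1 without WT TAC replicate 1 or 5 or IRS1KO TAC replicate 2, 4 or 6, 6 without WT TAC replicate 3 and 10 without IRS1KO TAC replicate 5. It was 0 when only the WT TAC and IRS1KO TAC libraries were fitted (adjusted p = 0.0724 for Sucla2 and 0.154 for Sdha), a fit that called 0.862% of all genes lower. With libraries weighted by quality it was 27, of which 26 were lower, and that fit called 1371 of the 13695 genes lower. None of the 12 cardiomyocyte markers was called between IRS1KO and WT after TAC, with a median of -0.38. Of 10 fibroblast markers 1 was higher and 1 lower, and of 7 smooth muscle and pericyte markers 1 was higher. In sham the smooth muscle and pericyte markers summed to 22276 to 25271 normalized counts in IRS1KO and 18908 to 20762 in WT. The part of these markers in the difference was not tested.

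The subunit ratio of succinyl-CoA ligase differed between IRS1KO and WT in both operations. Suclg2 over Sucla2 was 0.269 ± 0.011 in WT sham (0.255 to 0.282, n = 6) and 0.320 ± 0.019 in IRS1KO sham (0.292 to 0.346, n = 6), and 0.258 ± 0.014 in WT TAC (0.242 to 0.273, n = 5) and 0.323 ± 0.020 in IRS1KO TAC (0.291 to 0.343, n = 6). The IRS1KO libraries lay wholly above the WT libraries in each operation, by 0.25 on the log2 scale in sham (adjusted p = 0.0242, exact permutation test) and 0.32 after TAC (adjusted p = 0.0346, exact permutation test). The sham call held without any 1 library of the comparison. The call after TAC was lost without any 1 of the 6 IRS1KO TAC libraries (adjusted p up to 0.0606) and held without any 1 WT TAC library. The difference stayed between 0.30 and 0.35. Leaving out an IRS1KO TAC library makes the groups equal in size, where the smallest p this test can give is larger. That loss therefore does not show a weaker difference. IRS2KO had ratios of 0.262 ± 0.015 in sham and 0.260 ± 0.008 after TAC, and neither comparison with WT passed (differences of -0.04 and 0.01). Suclg2 itself differed between IRS1KO and WT by -0.11 in sham and -0.37 after TAC and was not called, against -0.35 and -0.69 for Sucla2.

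The aspartate aminotransferases gave a second ratio of this kind in sham hearts. Got1 over Got2 was 1.44 to 1.69 in WT sham and 1.17 to 1.36 in IRS1KO sham, with no overlap (log2 difference -0.24, adjusted p = 0.0242, exact permutation test), and the call held without any 1 library. After TAC the ratio was 1.32 ± 0.106 in WT and 1.31 ± 0.140 in IRS1KO (difference -0.02, adjusted p = 0.933, exact permutation test). In all, 7 of the 56 ratio tests passed: Idh2 to Idh3a in 3 comparisons, Suclg2 to Sucla2 in 2, Got1 to Got2 in 1 and Pcx to Pdha1 in 1.

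**Figure D5:**
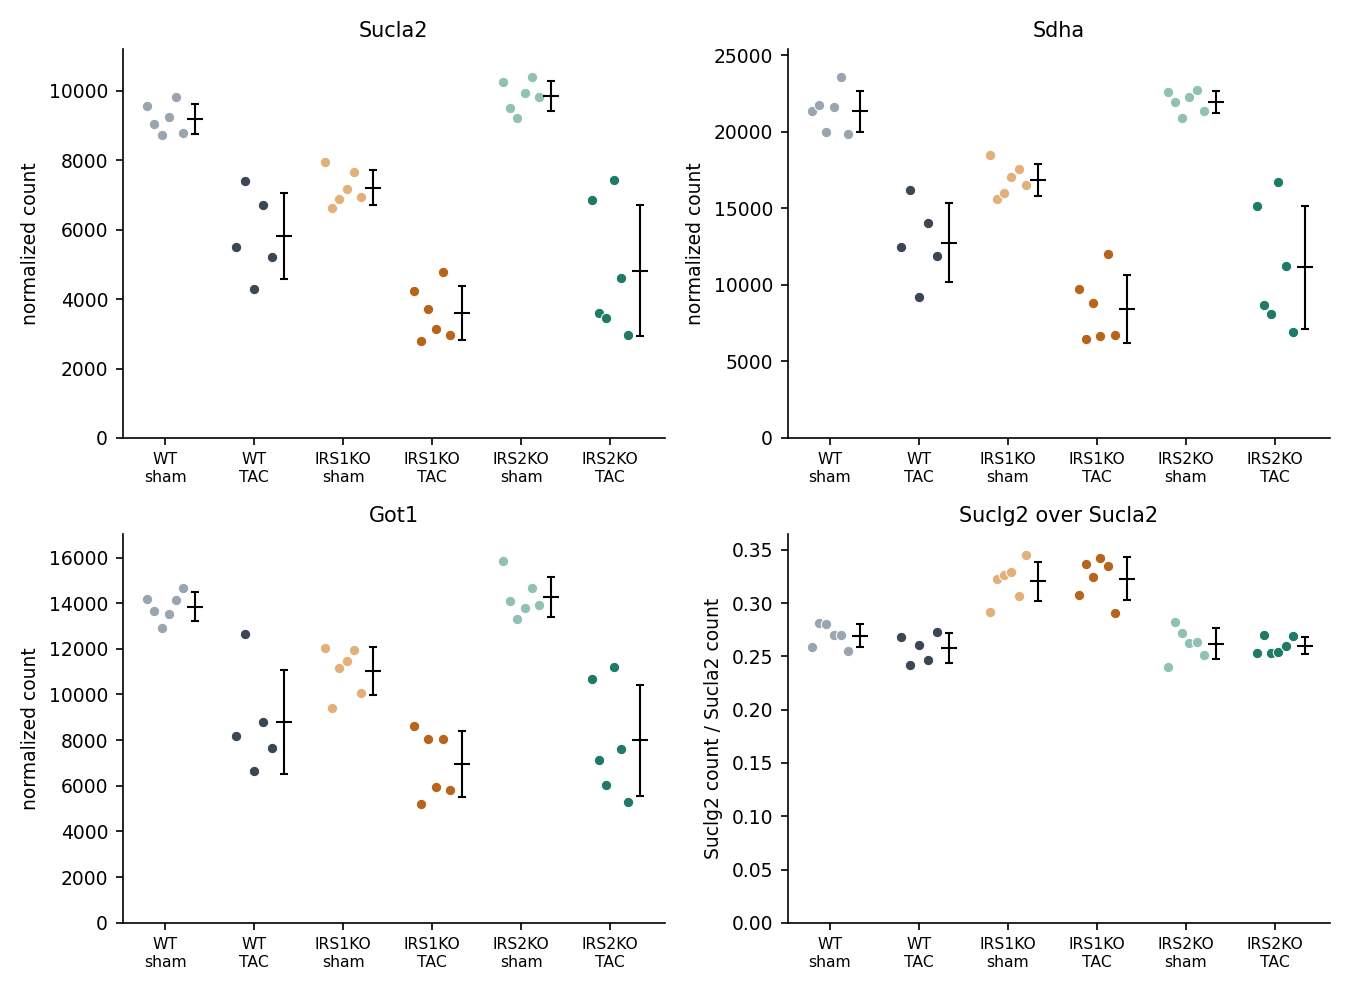
Normalized counts of Sucla2, Sdha and Got1 and the ratio of Suclg2 to Sucla2 in each library (points) of the 6 groups, with the mean and SD of each group beside them. In sham hearts the IRS1KO points of Sucla2, Sdha and Got1 lie below all WT points, and the ratio lies above all WT points in both operations.

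No member was called between IRS2KO and WT, in sham or after TAC, where 0.0% of all genes were called in each. In sham the median difference of the 32 was 0.04. After TAC it was -0.22, and Mpc2 had the smallest p (-0.38 ± 0.19 SE, limma adjusted p = 0.721). edgeR and DESeq2 called 0 in both. Between IRS1KO and IRS2KO, 0 were called in sham (8.3% of all genes in either direction) and 0 after TAC (2.36% of all genes). In sham 8 genes lay wholly lower in IRS1KO than in IRS2KO (4.72% of all genes), with Sucla2 first (-0.45 ± 0.16, adjusted p = 0.0801). Fitted on those groups alone 14 genes were called lower in IRS1KO than in IRS2KO sham hearts (8.95% of all genes), and 8 with weighted libraries (10.3% of all genes).

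The response to TAC itself was not shown to differ between genotypes for any of the 32 genes. In the test of the difference of responses 0 were called for IRS1KO against WT (0.11% of all genes), 0 for IRS2KO against WT (0.0% of all genes) and 0 for IRS1KO against IRS2KO (0.409% of all genes), and no member had an unadjusted p under 0.05 in any of the 3. The median difference in response was -0.25, -0.25 and 0.03. The first 2 of these share the WT libraries. For Idh2 the knockouts' responses were larger than in WT by 0.52 ± 0.37 SE (IRS1KO) and 0.44 ± 0.37 SE (IRS2KO) on the log2 scale. Both differences were larger than their SE but were not called, so the comparison cannot tell differences of this size from none.

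Of 35 related genes, 34 passed the filter, and 20 fell and 5 rose in WT after TAC (median -0.31, with 54.9% of all genes called in either direction). In IRS1KO 22 fell and 7 rose (median -0.43, 64.1% of all genes), and in IRS2KO 21 fell and 6 rose (median -0.37, 62.4% of all genes). The 8 with the smallest p in WT are named here. Ogdhl, a relative of Ogdh, went from 3155 ± 145 normalized counts to 1204 ± 592 in WT (SD), a log2 fold change of -1.52 ± 0.31 SE. The other phosphatase of pyruvate dehydrogenase, Pdp2, fell by 1.49 on the log2 scale (550 ± 52.1 to 212 ± 111), more than Pdp1 or Pdpr. The kinases that switch off pyruvate dehydrogenase did not move together: Pdk1 (-0.66 ± 0.11) and Pdk2 (-0.99 ± 0.15) fell while Pdk3 rose (1.60 ± 0.26) from a low level of 25.4 ± 4.69 to 81.5 ± 23.2. Gpt2, mitochondrial alanine aminotransferase, fell from 607 ± 55.4 to 253 ± 59.2 (-1.28 ± 0.18), Nnt, which makes mitochondrial NADPH, fell from 14825 ± 1512 to 6657 ± 1997 (-1.20 ± 0.23), and Me2, mitochondrial malic enzyme, rose from 109 ± 12.9 to 173 ± 25.5 (0.65 ± 0.13). Between IRS1KO and WT 1 related gene of 34 was called in sham, where 4.65% of all genes were called in either direction: Gpd1 (-0.68 ± 0.14, limma adjusted p = 0.00191). After TAC 4 were called lower, where 2.68% of all genes were, Ogdhl (-1.02), Gpt (-1.01), Slc25a22 (-0.59) and Lipt2 (-0.61). All were lower in IRS1KO and, apart from Ogdhl, were named after their values were seen.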

How the data were processed

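RNA of the heart apex was sequenced in 35 libraries of 6 groups, with a kit that keeps strand according to the labels. Per the file headers, the authors deposited 1 normalized count signal for each gene and library. The submitters' processing notes name HISAT2 2.0.6, HTSeq 0.7.1, DESeq2 and GRCm38. The annotation version and the use of strand in counting are not given in the sources used here. GENCODE vM21 held 26886 of the 27012 gene identifiers and gave symbols, exon lengths and coordinates. In each library 100% of values were whole multiples of a single step within 0.001, so that read counts could be recovered. Across 85 pairs of libraries within groups, chi-square over its degrees of freedom was at least 2.54, and no library was treated as a duplicate.

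Genes with a mean of at least 10 (13695) were tested on log2(normalized count + 1) with limma 3.58.1 (trend, robust) in R 4.3.3, in a single model of 6 group means with 12 contrasts. P-values were two-sided and adjusted by Benjamini-Hochberg within a contrast, with a threshold of 0.05. Fold changes are on the log2(value + 1) scale. Within-library log2 ratios of 8 gene pairs were compared by exact permutation. The settings varied were the pseudocount (0.5 and 5), the filter (none, and a minimum of 50), the scaling (3 others), the libraries fitted (only the compared groups, and each library left out), library weights and a replicate block. Recovered reads were also tested with DESeq2 1.42.0 and with edgeR 4.0.16. The scripts were tested on simulated counts. All 32 genes could be named, with up to 8 related genes of smallest p in WT. The genes, lists and tests were chosen with earlier results of these data known.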

Additional observations from a re-analysis of the deposited data

Results flagged for a closer look

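In 192 groups of 5 or 6 libraries of the 32 genes, 7 held a library whose gap to its nearest neighbour was large against the range of its group by Dixon's criterion. Chance flags about 1 in 20 groups. Of these, 3 were in IRS1KO sham replicate 1, where Pdpr was lowest (704 normalized counts, the others 1241 to 1436) and Fh1 (6313, the others 4968 to 5466) and Mdh2 (19186, the others 14911 to 16313) were highest. Dlat was lowest in WT sham replicate 3 (6153, the others 6500 to 6638), and Dld in IRS2KO sham replicate 3 (6678, the others 7458 to 7924). Pdp1 was lowest in WT TAC replicate 1 (315, the others 412 to 446) and highest in IRS1KO TAC replicate 5 (646, the others 353 to 443).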

How the results depend on the processing

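The count of genes called for TAC ranged over all alternatives from 22 to 32 in WT, 28 to 31 in IRS1KO and 30 to 31 in IRS2KO, and from 26 to 31, 30 to 31 and 31 to 31 when a library was left out. The ratio tests passed in 6 to 10 of 56. Counts for IRS2KO against WT, IRS1KO against IRS2KO after TAC and the differences in response were 0 in every alternative. IRS1KO against WT in sham gave 8 with only those groups fitted and 3 with library weights. IRS1KO against IRS2KO in sham gave 14 and 8 in these settings, 1 with the same total per library, and 2 without the TAC libraries nearest to sham. IRS1KO against WT after TAC gave 0 with only those groups fitted, 27 with library weights, and 0 to 10 when a library was left out. Apart from those given above, shares of all genes called are not set beside these counts. A change in a count is therefore not read as particular to the 32 genes. The cause was not tested.

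Pcx after TAC turned upward in IRS1KO with the same total per library (0.271), with that total taken without the mitochondrial genome (0.101) and with library weights (0.0201), and ran from -0.0769 to 0.0129 when a library was left out, upward only without IRS1KO TAC replicate 3. In IRS2KO it turned upward with the first 2 of these settings (0.264 and 0.0857). The same total raised the median of all genes by 0.24 to 0.33, a range that holds the Pcx values of 0.271 and 0.264. Over the 127 results for single genes, 3100 of 3199 alternative values kept direction and side of the threshold, 50 lost and 43 gained a call, and 6 turned.

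The labels do not say that a replicate number marks a shared litter, batch or day, and 38 of 85 same-number pairs across groups correlated above 0.1 (median 0.0878, lowest -0.603, against a median of -0.0242 for other numbers), so the numbers were not used as pairs. Of 35 libraries, 15 correlated best with their own number, a hint from the data and not the design. With the replicate block, 29, 31 and 31 genes were called for TAC in WT, IRS1KO and IRS2KO, 2 for IRS1KO against WT after TAC and 1 (Sucla2) for IRS1KO against IRS2KO in sham. The share of all genes called with the block is not set beside these counts.

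Depth did not limit the members, whose lowest value in any library was 280 normalized counts.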
